A study of Homo sapiens with 9 samples.

Results

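The messenger RNA of cells depleted of TTC33 was compared directly with that of cells depleted of CCDC97, in a comparison of 3 libraries labelled TTC33 knock-down with 3 labelled CCDC97 knock-down. These are 6 of the 9 libraries of the study, chosen by their labels. The remaining 3, from control cells, stayed out of the tests and are given only as a reference level. The line used throughout was HEK293Flip-In T-Rex, derived from human embryonic kidney and built so that tetracycline switches on an inserted gene. The TTC33 knock-down cells express a microRNA against TTC33, the CCDC97 knock-down cells express a microRNA against CCDC97, and the control cells express no microRNA. Tetracycline was given to every group, controls included, for 3 days at 100 ng/ml, so the drug was common to both sides of the comparison, and so was the expression of a microRNA. The labels do not say whether a line is 1 clone, nor that replicates are separate cultures. The spread behind each p-value is therefore only that among these 6 libraries and may be technical, and a line cannot be told apart from the microRNA it carries.

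An expressed microRNA is loaded into an Argonaute protein and lowers the mRNAs that pair with it, above all with its 5′ end, the seed, and mostly in their 3′ untranslated region (UTR). The intended target is matched along the whole microRNA, and other mRNAs that match only the seed can be lowered as well. CCDC97 is a protein of the SF3B complex, the part of the U2 snRNP that recognises the branch site of introns. TTC33 is a small protein with tetratricopeptide repeats, a fold that binds other proteins. It is found with PHF5A, a further SF3B subunit, and with WDR61, a subunit of the PAF1 and SKI complexes, which act in transcription elongation and in mRNA decay. HEK293 cells carry some neuronal genes in an active state, and many others are held down in non-neuronal cells by the repressor REST.

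Between 21764203 and 31801574 counts fell on genes in the 6 libraries, and 17616 genes were tested. The levels below are CPM, the counts of a gene scaled to a common library size, in the order of replicates 1, 2 and 3. In CPM of the gene total, without TMM scaling factors, the identity markers of HEK293 cells summed to 1408 to 1512 CPM in the CCDC97 and 1586 to 1774 CPM in the TTC33 knock-down, with 9 of 12 above 1 CPM in each group. The 22 markers of other cell types summed to 35.8 to 45.0 and 39.0 to 50.3 CPM, with 4 above 1 CPM and 13 under 0.1 CPM, and none of the 6 that were tested passed.

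How levels followed the GC content of genes set replicate 1 of both knock-downs apart from the others. Among genes in the lowest decile of GC content (median 36.7%) the median log2 difference from the mean of the 6 libraries was -0.03, 0.30 and 0.27 in the CCDC97 and 0.15, -0.31 and -0.35 in the TTC33 knock-down. In the highest decile (63.9%) it was 0.11, -0.32 and -0.34 in the CCDC97 and -0.13, 0.33 and 0.36 in the TTC33 knock-down. The plot of levels by GC content shows replicates 2 and 3 of each group tilting in opposite directions and both replicates 1 lying close to level, each tilted a little against its own group. Across 17397 genes, which are not independent, Spearman's correlation of the fold change with GC content was 0.57. Many results below are also given after removal of each library's trend with GC content and transcript length, called the correction. The part of this trend in the differences given without the correction was not tested.

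**Figure D1:**
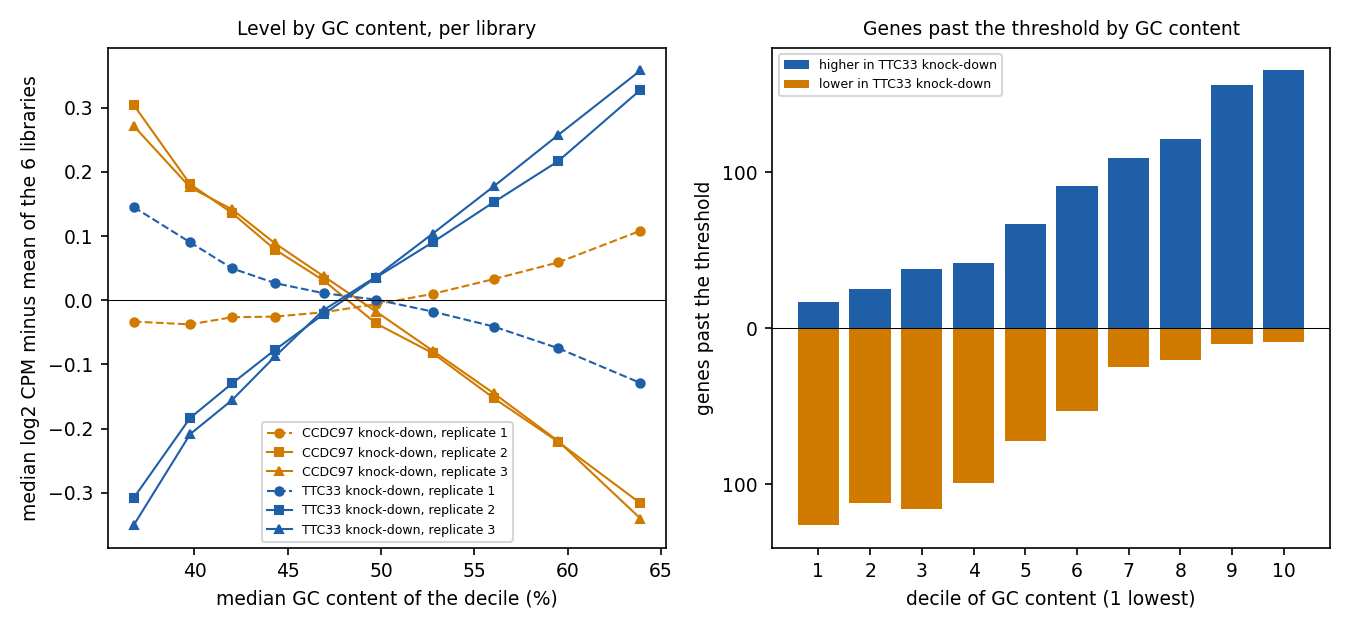
Left: median log2 CPM minus the mean of the 6 knock-down libraries (vertical) against the median GC content in percent of 10 groups of genes (horizontal), a line per library, dashed for replicate 1. Right: genes past an adjusted p of 0.05 in each GC decile, counted upwards where higher and downwards where lower in the TTC33 knock-down, from 17 higher and 126 lower in the lowest decile to 165 and 9 in the highest.

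Of the 17616 genes, 1479 differed between the knock-downs at an edgeR adjusted p under 0.05 (8.4% of genes tested). Of these, 836 were higher (4.75%) and 643 lower (3.65%) in the TTC33 knock-down. The median absolute log2 fold change of the 1479 was 0.66. Larger differences were mostly in one direction: 255 genes were higher and 83 lower by more than 1 on the log2 scale, and 75 and 8 by more than 2. For all 836 and all 643 the libraries of the knock-downs did not overlap, and 31% of all genes tested were separated in this way. Long non-coding RNAs accounted for 63 of the genes higher and 30 of those lower, of 2723 tested.

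After the GC content and length correction 3974 of 17397 genes passed (22.8%), 1690 higher (9.71%) and 2284 lower (13.1%), so that the larger share turned from higher to lower. Of the 1479 genes, 1374 (92.9%) passed again in the same direction, 764 of them higher and 610 lower, and 1 had the opposite sign. With only replicates 2 and 3 of both groups 9749 of 17587 genes passed (55.4%), 4823 higher (27.4%) and 4926 lower (28%). Counts of list members below are to be read beside the shares over all genes in the same fit. The fits without CCDC97 knock-down replicate 2 or 3 called 194 and 273 genes, and those without TTC33 knock-down replicate 2 or 3 called 263 and 310. Without CCDC97 knock-down replicate 1 the count was 2672, and without TTC33 knock-down replicate 1 it was 5916. Below, a gene is said to hold without any 1 library if it passed in all 6 such fits, which was so for 53 of the 128 genes past the threshold that were named by rule, among them all 24 with the largest differences.

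**Figure D2:**
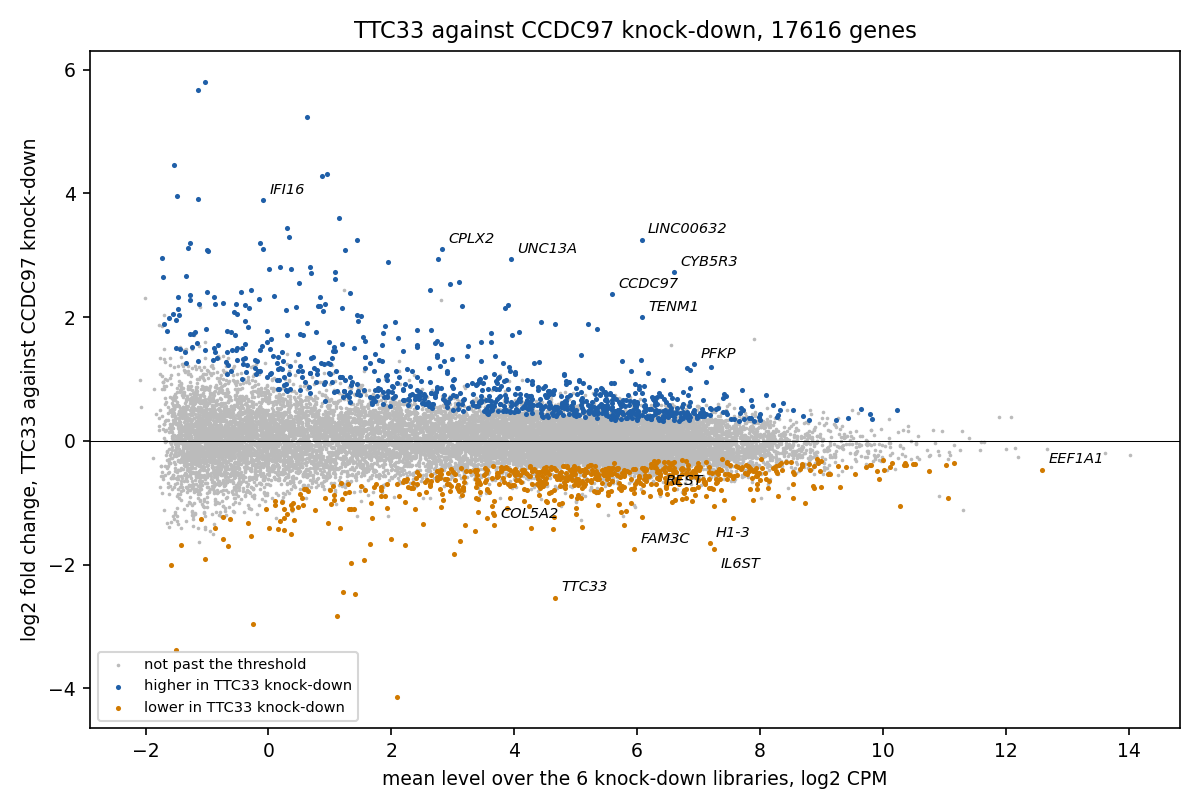
Log2 fold change of TTC33 against CCDC97 knock-down (vertical) against the mean level over the 6 libraries in log2 CPM (horizontal), a point per gene for 17616 genes. The 836 coloured points above 0 are genes higher and the 643 below are genes lower in the TTC33 knock-down, and the points far from 0 lie mostly above it.

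The level of each microRNA's own target checks the labels. TTC33 (ENSG00000113638; GRCh38 chr5:40512333-40755975, minus strand) had 9.67, 6.41 and 6.16 CPM in the TTC33 knock-down, 29.96, 52.5 and 47.0 CPM in the CCDC97 knock-down and 37.7, 37.1 and 38.6 CPM in control cells. The 3 TTC33 knock-down libraries lay below all others, and the CCDC97 knock-down libraries lay on both sides of the controls. The difference was -2.54 ± 0.25 (SE) on the log2 scale (edgeR adjusted p = 0.000801), and -2.11 after the correction. CCDC97 (ENSG00000142039; chr19:41310189-41324883, plus strand) had 15.8, 15.3 and 15.7 CPM in its own knock-down, 65.1, 81.3 and 95.8 CPM in the TTC33 knock-down and 60.6, 60.1 and 59.5 CPM in controls. All TTC33 knock-down libraries lay above the controls, and the direct difference was 2.37 ± 0.15 (adjusted p = 9.04e-05; 2.06 corrected). Each of these 2 differences thus sets a lowered target in one arm against a level near or above control in the other.

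The partners of TTC33 did not pass. PHF5A had 39.4, 41.9 and 43.0 CPM in the CCDC97 and 41.6, 41.6 and 41.1 CPM in the TTC33 knock-down, with the groups overlapping and a log2 difference of 0.00 ± 0.09 (adjusted p = 0.995). WDR61 had 56.6, 71.1 and 62.4 CPM in the CCDC97 and 53.3, 53.2 and 49.4 CPM in the TTC33 knock-down. The WDR61 groups did not overlap, but the difference of -0.29 ± 0.11 did not pass (adjusted p = 0.116; -0.11 corrected). With only replicates 2 and 3, where 55.4% of all genes passed, the WDR61 difference was -0.38 and passed (edgeR adjusted p = 0.000135). It also passed in the fit of all 9 libraries (edgeR adjusted p = 0.0396), as did 3943 of 18299 genes there. With the correction the fit of all 9 libraries gave -0.12, which did not pass (edgeR adjusted p = 0.173). Of 28 tested genes of the SF3 complexes, U2 snRNP and 3′ splice site recognition, 1 was called, CCDC97 itself, and the median difference was 0.03 against 0.005 over all genes. Of 10 subunits and partners of PAF1 and SKI, HBS1L was the 1 called, at -0.44 ± 0.11, with a list median of -0.23. After the correction HBS1L was at -0.22 and the list median at -0.07. Of 18 genes of the RNA exosome, the main 3′ to 5′ RNA-degrading complex, EXOSC6 was higher (0.37 ± 0.09) and EXOSC7 lower (-0.47 ± 0.10). Of all genes 4.75% were higher and 3.65% lower. The correction moved EXOSC7 to -0.29 and the median of the exosome genes from -0.15 to 0.001. Of 17 genes of Argonaute proteins and microRNA processing, AGO4 was lower in the TTC33 knock-down by -0.38 ± 0.09, with 42.2, 42.6 and 43.3 CPM in the CCDC97 and 33.0, 31.9 and 33.3 CPM in the TTC33 knock-down. The calls of HBS1L and AGO4 were lost without replicate 2 or 3 of either knock-down (adjusted p up to 0.181 and 0.178), as was that of EXOSC7, while EXOSC6 was also lost without CCDC97 knock-down replicate 1.

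A direct difference can come from either arm, and the controls give a level from which the distance of each arm can be read. The controls express no microRNA and lay closer to each other than the libraries of a knock-down did. Whether a distance from them is an effect of the knock-down was not tested. Of the 836 genes higher in the TTC33 knock-down, the control mean lay between both knock-downs but nearer to the CCDC97 knock-down for 403 and nearer to the TTC33 knock-down for 219. It lay beyond the CCDC97 knock-down for 141 and beyond the TTC33 knock-down for 73. Of the 643 lower genes the same counts were 361, 172, 68 and 42. All 3 TTC33 knock-down libraries lay above or all below the 3 controls for 677 of the higher and 524 of the lower genes, and for 37.4% of all genes tested. All 3 CCDC97 knock-down libraries did so for 467 and 354, and for 30.3% of all genes. For 244 and 206 genes, and 3.71% of all genes, both arms lay outside with the controls between them. The plot of the 24 largest differences shows all these forms.

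**Figure D3:**
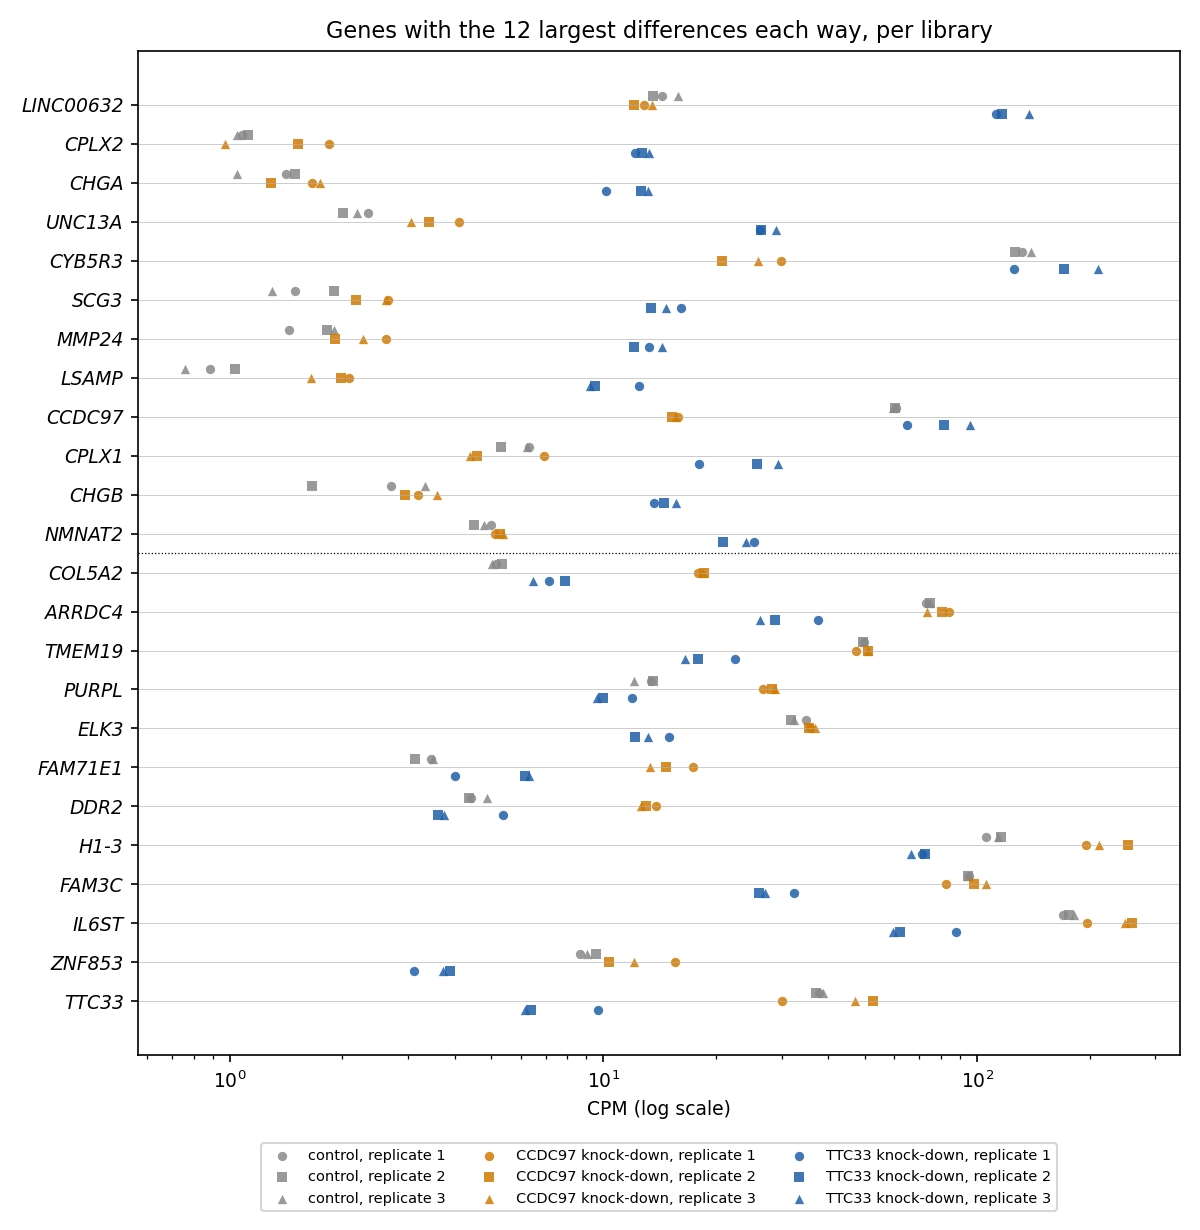
CPM on a log axis (horizontal) in each library for the 12 genes with the largest differences higher (above the dotted line) and lower (below it) in the TTC33 knock-down. Grey points are controls, orange CCDC97 and blue TTC33 knock-down, with a marker shape per replicate; for LINC00632 the blue points lie at 112 to 137 CPM, apart from the others, while for CYB5R3 the orange ones do, at 20.8 to 29.9 CPM.

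Several of the largest differences towards the TTC33 knock-down were in genes of regulated secretion and neurons, for which the TTC33 knock-down was the arm further from the controls. In bulk RNA, fewer cells expressing a gene and less RNA per cell cannot be told apart. LINC00632 (ENSG00000203930; chrX:140709562-140793215, plus strand), the non-coding host transcript of the circular RNA of CDR1, had 112, 116 and 137 CPM in the TTC33 and 12.9, 12.1 and 13.5 CPM in the CCDC97 knock-down. The controls had 14.4, 13.6 and 15.8 CPM, so the TTC33 knock-down lay far above them and the CCDC97 knock-down slightly below. The log2 difference was 3.25 ± 0.12 (adjusted p = 8.31e-06; 3.53 corrected). It shares 789 exon bases with CDR1 on the other strand, so reads of that stretch could belong to either gene where strand was not used.

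Of 30 tested genes of synaptic vesicle release, 15 were higher in the TTC33 knock-down and 0 lower, where 4.75% and 3.65% of all genes were. Their median log2 difference was 0.46, against 0.005 over all genes. After the correction 18 were higher and 1 lower (median 0.39), where 9.71% and 13.1% of all genes were. With only replicates 2 and 3 the counts were 24 and 2, where 27.4% and 28% of all genes passed. The median GC content of these 30 genes was 53.3%, against 48.2% over all genes. CPLX2, a complexin that clamps and promotes vesicle fusion, had 12.1, 12.7 and 13.2 CPM in the TTC33 and 1.84, 1.52 and 0.97 CPM in the CCDC97 knock-down. The controls lay at 1.05 to 1.12 CPM, and the difference was 3.10 ± 0.19 (adjusted p = 9.04e-05). UNC13A, which primes vesicles, had 26.3, 26.4 and 28.96 CPM in the TTC33 and 4.10, 3.40 and 3.05 CPM in the CCDC97 knock-down. All CCDC97 knock-down libraries lay slightly above the controls (2.01 to 2.35 CPM), and the difference was 2.94 ± 0.14 (adjusted p = 4.23e-05). CPLX1, the other complexin of this list, was higher by 2.19 ± 0.23 (18.02, 25.8 and 29.3 against 6.93, 4.59 and 4.40 CPM). SYP, a membrane protein of synaptic vesicles, was higher by 1.80 ± 0.13, with 54.3, 67.0 and 68.7 against 19.9, 17.8 and 16.7 CPM and controls at 12.2 to 14.2 CPM. Both arms thus lay above control for SYP, the TTC33 knock-down further. These 4 held without any 1 library. At low levels, SYT4, a synaptotagmin, had 6.01, 2.46 and 2.41 against 0.11, 0.07 and 0.44 CPM (4.31 ± 0.61), and SNAP25, a SNARE of the plasma membrane, had 10.9, 9.15 and 8.95 against 3.86, 4.16 and 4.50 CPM (1.22 ± 0.14).

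Of 16 granins and other dense-core granule genes, 7 were higher and 0 lower (median 0.59), and 8 and 1 after the correction (median 0.26). With only replicates 2 and 3, 9 were higher and 4 lower, where 27.4% and 28% of all genes were. In the fit of all 6 libraries 4.75% of all genes were higher and 3.65% lower, and 9.71% and 13.1% after the correction. CHGA, the granin chromogranin A, had 10.2, 12.6 and 13.2 CPM in the TTC33 and 1.66, 1.29 and 1.74 CPM in the CCDC97 knock-down. The CCDC97 knock-down overlapped the controls (1.05 to 1.497 CPM), and the difference was 2.95 ± 0.18 (adjusted p = 9.04e-05). SCG3, which binds chromogranin A in the granule, was higher by 2.58 ± 0.14, with 16.1, 13.4 and 14.7 against 2.65, 2.18 and 2.61 CPM. CHGB, chromogranin B, was higher by 2.18 ± 0.13, with 13.6, 14.5 and 15.6 against 3.18, 2.94 and 3.58 CPM. The prohormone convertases that cut granule cargo were higher too, near 1 CPM: PCSK2 had 1.22, 1.01 and 1.15 against 0.32, 0.17 and 0.24 CPM (2.21 ± 0.30). PCSK1 had 1.09, 0.73 and 0.84 against 0.21, 0.20 and 0.15 CPM (2.21 ± 0.33).

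**Figure D4:**
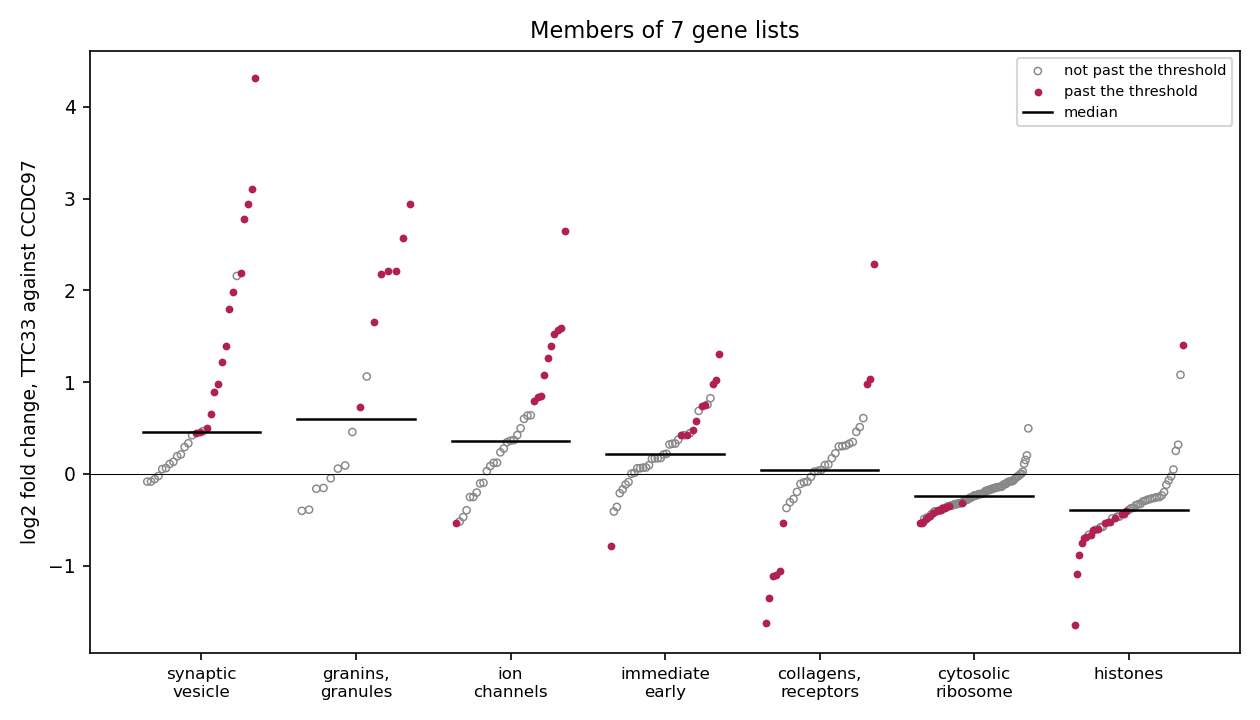
Log2 fold change of TTC33 against CCDC97 knock-down (vertical) for each tested member of 7 gene lists (horizontal), sorted within a list. Filled points are past an adjusted p of 0.05, open points are not, and bars are list medians, which run from 0.59 for granins and granules to -0.39 for histones.

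Other neuronal genes were higher as well. Of 33 neuronal ion channel and receptor genes, 10 were higher and 1 lower (median 0.36), and after the correction 11 were higher and 5 lower with a median of 0.06. With only replicates 2 and 3 the counts were 22 and 6, where 27.4% of all genes were higher and 28% lower. In the fit of all libraries the shares of all genes were 4.75% and 3.65%, and 9.71% and 13.1% after the correction. GRIK3, a kainate receptor subunit, had 14.6, 13.9 and 13.7 CPM in the TTC33 and 4.85, 4.99 and 4.79 CPM in the CCDC97 knock-down, with controls between them at 7.21 to 7.49 CPM. Its difference was 1.53 ± 0.11 (adjusted p = 0.00019), with each arm on its own side of the controls. SCN3B, a sodium channel subunit, was higher by 1.57 ± 0.15. SCN8A, a sodium channel, was higher by 0.79 ± 0.10, with 30.1, 29.7 and 30.8 against 16.8, 16.98 and 18.5 CPM. The call in the other direction was CACNA1D, a calcium channel, at -0.53.

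Of 25 genes of the neuronal cytoskeleton, 8 were higher and 0 lower (median 0.37), and 10 and 2 after the correction (median 0.13). Over all genes 4.75% were higher and 3.65% lower, and 9.71% and 13.1% after the correction. INA, a neurofilament subunit that is also a marker of HEK293 cells, had 96.4, 94.9 and 99.5 CPM in the TTC33 and 61.8, 64.8 and 65.2 CPM in the CCDC97 knock-down (0.60 ± 0.08), with controls at 56.3 to 57.8 CPM. The more abundant neurofilament subunit NEFL did not pass, with 149.95, 158 and 148 CPM in the TTC33 and 187, 176 and 173 CPM in the CCDC97 knock-down (-0.23 ± 0.08, adjusted p = 0.0974), but it was lower after the correction (-0.27, adjusted p = 0.00518). The stathmin STMN1 did not pass (-0.26 ± 0.10, adjusted p = 0.109; -0.02 corrected). STMN3, a stathmin that acts on microtubules, was higher by 1.13 ± 0.16, NEFH, a neurofilament subunit, by 1.17 ± 0.22, and CRMP1, a growth cone protein, by 0.67 ± 0.11. After the correction these 3 were at 0.77, 0.91 and 0.43. The call of STMN3 was lost without CCDC97 knock-down replicate 2 (adjusted p = 0.0511), and those of NEFH and CRMP1 without replicate 2 or 3 of either knock-down (up to 0.0952 and 0.0692). NMNAT2, an NAD-synthesising enzyme that maintains axons, was higher by 2.15 ± 0.12, with 25.3, 20.9 and 24.1 against 5.13, 5.29 and 5.37 CPM. LSAMP, an adhesion protein of limbic neurons, was higher by 2.44 ± 0.18, with 12.4, 9.50 and 9.22 against 2.09, 1.98 and 1.65 CPM.

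Among adhesion genes, 8 of 24 teneurins, partners and related cadherins were higher and 1 lower (median 0.31; 9 and 4 with a median of 0.10 after the correction). The shares of all genes were 4.75% higher and 3.65% lower, and 9.71% and 13.1% after the correction. TENM1 (chrX:124375903-124963817, minus strand), a teneurin that links cells across synapses, had 123, 100.5 and 102 CPM in the TTC33 and 26.2, 27.3 and 28.1 CPM in the CCDC97 knock-down. The controls lay between them at 72.2 to 72.6 CPM, so the arms departed from control in opposite directions, and the difference was 2.00 ± 0.11 (adjusted p = 6.92e-05; 2.04 corrected). PCDH19, a protocadherin, had 82.0, 73.0 and 75.7 against 36.1, 27.7 and 30.7 CPM (1.29 ± 0.12), with controls at 83.6 to 85.8 CPM. Here it was the CCDC97 knock-down that lay far from the controls. L1CAM, an axonal adhesion molecule, was higher by 1.79 ± 0.15 and PCDH10, a protocadherin at a low level, by 2.33 ± 0.20. Of 26 tested clustered protocadherins 4 were higher and 0 lower (median 0.27; 5 and 0 with a median of 0.07 after the correction). PCDHA11 was higher by 1.45 ± 0.17 at 2.98 to 3.06 against 1.03 to 1.26 CPM, and PCDHA13, PCDHA12 and PCDHAC1 were higher by 1.43, 1.18 and 1.14. These genes share exons, so their counts are uncertain one by one, and the last 3 calls were lost on leaving out a library in 5, 4 and 3 of 6 fits, each of these without TTC33 knock-down replicate 2 or 3.

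REST, the repressor of neuronal genes named above, was lower in the TTC33 knock-down. It had 70.9, 53.2 and 55.6 CPM there, 89.3, 110 and 117 CPM in the CCDC97 knock-down and 95.7 to 97.6 CPM in controls. The TTC33 knock-down lay below the controls and the CCDC97 knock-down on both sides of them. The difference was -0.82 ± 0.14 (adjusted p = 0.0141; -0.66 corrected), and the call was lost without replicate 2 or 3 of either knock-down (up to 0.086). SRRM3, a splicing factor of neuronal microexons, was higher by 1.56 ± 0.25, with 4.34, 5.76 and 5.93 against 2.55, 1.35 and 1.5 CPM. Its call was lost without CCDC97 knock-down replicate 2 or 3 (up to 0.0639). These were the 2 calls among 13 genes of a list of REST and its corepressors that also holds SRRM3, so no corepressor was called. The list median was -0.03, and 4.75% of all genes were higher and 3.65% lower.

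A separate form of difference came from genes that were low in the CCDC97 knock-down and near control in the TTC33 knock-down. CYB5R3 (ENSG00000100243; chr22:42617840-42649568, minus strand), cytochrome b5 reductase, had 29.9, 20.8 and 25.9 CPM in the CCDC97 and 125, 170 and 211 CPM in the TTC33 knock-down, with controls at 127 to 139 CPM. The difference was 2.73 ± 0.21 (adjusted p = 0.000214; 2.41 corrected), beside 2.37 ± 0.15 for CCDC97 itself. PFKP, the platelet form of the glycolytic enzyme phosphofructokinase, had 82.1, 68.9 and 66.6 against 142, 185 and 187 CPM (1.24 ± 0.13), with controls at 178 to 193 CPM. DONSON, a replication fork protein, had 31.0, 33.7 and 37.0 against 66.2, 62.7 and 64.6 CPM (0.93 ± 0.10), with controls at 86.8 to 89.8 CPM, so both arms lay below control. DONSON shares 307 exon bases with SON on the other strand. MMP24, a membrane metalloproteinase, was instead high in the TTC33 knock-down, at 13.2, 12.1 and 14.4 against 2.62, 1.92 and 2.27 CPM (2.54 ± 0.15). MMP24 shares 799 exon bases with MMP24OS on the other strand.

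Among the genes lower in the TTC33 knock-down, several were near control in the CCDC97 knock-down. FAM3C (chr7:121348851-121396364, minus strand), a secreted protein, had 32.3, 26.004 and 27.0 CPM in the TTC33 and 82.6, 98.4 and 106 CPM in the CCDC97 knock-down (controls 94.3 to 95.2 CPM). Its difference was -1.75 ± 0.13 (adjusted p = 0.000194; -1.43 corrected). IL6ST (chr5:55935095-55994993, minus strand), the signal-transducing receptor chain of interleukin-6 cytokines, had 87.8, 62.2 and 59.4 against 197, 260 and 248 CPM. With controls at 169 to 182 CPM the arms lay on opposite sides, and the difference was -1.75 ± 0.17 (adjusted p = 0.000789). ELK3, an ETS transcription factor, was lower by -1.42 ± 0.11 (14.9, 12.1 and 13.2 against 35.6, 35.4 and 36.8 CPM), TMEM19, a membrane protein, by -1.39 ± 0.13, and ARRDC4, an arrestin-like adaptor, by -1.36 ± 0.14. ZNF853, a zinc finger gene, had 3.12, 3.88 and 3.71 against 15.6, 10.3 and 12.1 CPM (-1.83 ± 0.18), with the controls between.

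In other genes of this direction the CCDC97 knock-down was the high arm. COL5A2, a fibrillar collagen chain, had 17.9, 18.6 and 18.5 CPM in the CCDC97 and 7.13, 7.87 and 6.46 CPM in the TTC33 knock-down (controls 5.04 to 5.36 CPM; -1.36 ± 0.11). DDR2, a collagen receptor kinase, had 13.8, 12.98 and 12.6 against 5.398, 3.61 and 3.75 CPM (controls 4.35 to 4.88 CPM; -1.62 ± 0.17). FAM71E1, which shares 324 exon bases with EMC10 on the other strand, had 17.3, 14.7 and 13.3 against 4.02, 6.17 and 6.31 CPM (-1.47 ± 0.19). PURPL, a long non-coding RNA, had 26.7, 28.3 and 28.8 against 11.95, 9.99 and 9.60 CPM (-1.41 ± 0.12). For each of these 4 genes the TTC33 knock-down lay closer to the controls than the CCDC97 knock-down did.

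Collagens and matrix genes were mixed. Over all genes 4.75% were higher and 3.65% lower, and 9.71% and 13.1% after the correction. Of 32 tested collagens and collagen receptors 6 were lower and 3 higher in the TTC33 knock-down (median 0.04), and after the correction 15 were lower and 3 higher (median -0.20). COL21A1 was lower by -1.06 ± 0.12, and COL5A3, another chain of type V collagen, was higher by 2.29 ± 0.28 at 1.39 to 1.68 against 0.19 to 0.40 CPM. Chains of type V collagen thus differed in opposite directions. Of 37 matrix glycoproteins and crosslinkers 3 were higher and 3 lower (median -0.04; 4 and 14 with a median of -0.19 after the correction). TIMP2, an inhibitor of matrix metalloproteinases, was higher by 0.97 ± 0.12, LAMA4, a laminin chain, lower by -0.53 ± 0.08, and SPARC, a collagen-binding protein, lower by -0.81 ± 0.14. Of 22 mesenchymal genes 2 were higher and 3 lower (median 0.06), including CD44, the hyaluronan receptor, with 15.2, 13.6 and 15.95 against 27.9, 27.3 and 26.8 CPM (-0.87 ± 0.10; controls 14.7 to 14.9 CPM). PRRX1, a homeobox factor, was lower by -0.97 ± 0.12, and FLNC, a filamin, by -1.98 ± 0.22. Of 19 epithelial genes 2 were higher and 2 lower (median 0.06), with CDH1, E-cadherin, lower by -0.95 ± 0.15 and CLDN1, a claudin, by -0.78 ± 0.13. LAMA4 was lost without replicate 2 of either knock-down (up to 0.0543), SPARC and CDH1 in 3 and CLDN1 in 4 such fits, each of them without CCDC97 knock-down replicate 2 and TTC33 knock-down replicates 2 and 3 (up to 0.0814).

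Of 37 HOX genes 4 were lower and 0 higher (median 0.01), and after the correction 9 were lower and 1 higher (median -0.15). Among all genes 3.65% were lower and 4.75% higher, and 13.1% and 9.71% after the correction. HOXC11 had 24.3, 23.2 and 23.1 CPM in the CCDC97 and 11.3, 12.3 and 12.5 CPM in the TTC33 knock-down, with controls at 7.71 to 8.31 CPM (-0.97 ± 0.10). Both arms lay above control, the CCDC97 knock-down further. HOXA13 was lower by -0.69 ± 0.11, HOXA9 by -0.49 ± 0.08 and HOXA11 by -0.40 ± 0.10, and these 3 calls were lost on leaving out a library in 3, 4 and 5 of 6 fits (up to 0.0602, 0.0878 and 0.196), each of them without CCDC97 knock-down replicate 2 or 3. Of 34 genes of TGF-beta signalling 3 were higher and 2 lower (median -0.12). TGFBR3, the co-receptor betaglycan, had 41.0, 33.3 and 32.4 against 72.8, 82.6 and 77.8 CPM (-1.13 ± 0.12), and TGFBR2, the type II receptor, was lower by -0.79 ± 0.10. BMP2, a ligand, and ID1, a target gene, were higher by 1.14 ± 0.21 and 0.75 ± 0.16, and both calls were lost without replicate 2 or 3 of either knock-down (up to 0.131).

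Immediate early genes answer growth signals and stress within minutes. Of 38 tested 9 were higher in the TTC33 knock-down, 1 was lower and 28 did not pass (median 0.21). Higher and lower shares of all genes were 4.75% and 3.65%. Of the 38, 13 were higher and 3 lower after the correction (median 0.15), where 9.71% and 13.1% of all genes were. EGR1, a zinc finger factor of this class, had 15.7, 16.9 and 20.9 CPM in the TTC33 and 10.4, 7.20 and 8.76 CPM in the CCDC97 knock-down (1.02 ± 0.17; controls 6.80 to 7.49 CPM). JUN, an AP-1 subunit, had 289, 363 and 374 against 235, 186 and 195 CPM (0.74 ± 0.13), with controls between at 271 to 280 CPM. GADD45B, a stress-induced gene, was higher by 0.75 ± 0.13 (0.49 corrected). MYC was lower by -0.78 ± 0.14 (75.6, 93.9 and 98.3 against 180.5, 146 and 134 CPM), with controls at 139 to 146 CPM. FOS itself did not pass, at 0.09 ± 0.20 and about 2 CPM in both arms. EGR1 lost its call without CCDC97 knock-down replicate 2 or 3, MYC without replicate 2 of either knock-down, and JUN and GADD45B without replicate 2 or 3 of either (up to 0.0875).

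Stress and p53 genes differed in single members. The shares over all genes were 4.75% higher and 3.65% lower, and 9.71% and 13.1% after the correction. Of 30 p53 targets 5 were lower and 0 higher (median 0.01; 9 and 3 after the correction), among them MDM2, the ubiquitin ligase of p53, at -0.64 ± 0.13, SESN1, a sestrin, at -0.79 ± 0.12, and CCNG1, cyclin G1, at -0.89 ± 0.21. CDKN1A did not pass, at 0.05 ± 0.11. Of 33 genes of the ATF4 response to amino acid and other stress 5 were lower and 3 higher (median -0.12), and after the correction 16 were lower and 4 higher (median -0.15). ALDH1L2, a mitochondrial folate enzyme, had 8.13, 6.87 and 6.04 against 18.7, 15.8 and 15.4 CPM (-1.24 ± 0.14). SLC7A11, the cystine transporter, was lower by -1.04 ± 0.21, PSAT1 of serine synthesis by -0.62 ± 0.12 and DDIT4, an mTOR inhibitor, by -0.66 ± 0.11. Of 24 genes of the unfolded protein response 4 were higher and 0 lower (median 0.14), and 8 and 2 after the correction. WFS1, a membrane protein of the endoplasmic reticulum, was higher by 0.86 ± 0.16 (0.57 corrected) and the chaperone CALR by 0.43 ± 0.09 (0.31 corrected). Of 25 heat shock chaperones HSPB8 was the 1 called, at 1.4996 ± 0.24. Of the genes with a call in this paragraph, ALDH1L2 alone held without any 1 library; SESN1 was lost without CCDC97 knock-down replicate 2, HSPB8 without replicate 2 or 3 of that group, DDIT4 without CCDC97 replicate 2 or TTC33 replicate 2 or 3, and the others without replicate 2 or 3 of either (adjusted p up to 0.171).

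Histones and ribosomal proteins formed the broadest groups lower in the TTC33 knock-down. Of 47 histone genes 16 were lower and 1 higher (median -0.39), and after the correction 29 of 46 were lower and 3 higher (median -0.50). Over all genes 3.65% were lower and 4.75% higher, and 13.1% and 9.71% after the correction. The median GC content of the histone genes was 55.3%, against 48.2% over all genes. The part of the GC trend in their differences was not tested. H1-3 (chr6:26234268-26234933, minus strand), a linker histone, had 71.4, 72.4 and 66.7 CPM in the TTC33 and 196, 253 and 212 CPM in the CCDC97 knock-down. The controls lay between at 106 to 116 CPM, with the CCDC97 knock-down further from them, and the difference was -1.65 ± 0.11 (adjusted p = 0.000137; -1.75 corrected). H1-2, a linker histone at a higher level, had 760, 826 and 748 against 1172, 1279 and 1127 CPM (-0.62 ± 0.09; controls 996 to 1056 CPM). H2AC8 was lower by -0.69 ± 0.10 with the TTC33 knock-down at the level of the controls, while H2BC6 was higher by 1.41 ± 0.19 at 3.89, 5.51 and 5.13 against 2.05, 1.65 and 1.74 CPM. H2BC6 shares 730 exon bases with AL353759.1 on the other strand. Histone genes are near-identical copies and mostly lack a poly(A) tail, so their counts depend on how total RNA was turned into libraries and on how reads with several alignments were treated. Reads with several alignments made up 8.43% to 37.6% of the counts of a library and lie outside the gene counts.

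Among all genes 3.65% were lower and 4.75% higher, and 13.1% and 9.71% after the correction. Of 79 cytosolic ribosomal protein genes 16 were lower and 0 higher (median -0.24), 44 and 0 after the correction (median -0.25), and 73 had a negative sign. Against the control mean the median member was at 0.25, 0.45 and 0.20 in the CCDC97 and -0.02, 0.14 and 0.06 in the TTC33 knock-down, so the CCDC97 knock-down was the arm further from control. RPSA, of the small subunit, had 797, 816 and 789 CPM in the TTC33 and 1045, 1242 and 1084 CPM in the CCDC97 knock-down (-0.49 ± 0.09; controls 742 to 779 CPM). RPL15 was lower by -0.39 ± 0.08, RPL29 by -0.53 ± 0.10 and RPL22 by -0.54 ± 0.11. Of 46 translation factors 4 were lower and 1 higher (median -0.05), including EEF1A1, which brings aminoacyl-tRNA to the ribosome, with 5612, 5101 and 4879 against 6243, 8080 and 7225 CPM (-0.47 ± 0.11). EIF4B was lower by -0.38 ± 0.08 and EIF4H by -0.40 ± 0.07, while the scaffold EIF4G1 was higher by 0.49 ± 0.11 (0.22 corrected). These ribosomal and translation calls were lost without replicate 2 or 3 of either knock-down (up to 0.143).

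Shares over all genes were 3.65% lower and 4.75% higher, and 13.1% and 9.71% after the correction. Of 76 nuclear-encoded subunits of the respiratory chain 5 were lower and 0 higher (median -0.15), and 18 and 2 after the correction. Among the lower were ATP5F1C at -0.46 ± 0.09 (-0.30 corrected) and NDUFA4 at -0.58 ± 0.15 (-0.35 corrected). Of 77 mitochondrial ribosomal proteins 2 were lower and 1 higher (median -0.05), with MRPS27 higher by 0.44 ± 0.08 and DAP3 lower by -0.45 ± 0.09. These 4 calls were lost without replicate 2 or 3 of either knock-down (up to 0.183). Of the 13 mRNAs made in mitochondria the 1 called was MT-ND6, the one read from the light strand of the mitochondrial genome, with 136, 179 and 165 CPM in the TTC33 and 65.6, 68.9 and 82.5 CPM in the CCDC97 knock-down (1.14 ± 0.13). Its controls had 159, 68.9 and 50.2 CPM and so spanned both arms.

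The remaining lists held few calls, to be read beside the 4.75% and 3.65% of all genes. Of 51 genes of S phase 3 were higher and 0 lower (median 0.06), which were DONSON, CHAF1A of the chromatin assembly factor (0.75 ± 0.11) and E2F1 (0.57 ± 0.11). Of 47 genes of G2 and mitosis 2 were lower and 0 higher (median -0.19, and -0.07 after the correction), NUF2 of the kinetochore at -0.55 ± 0.11 and CKS2 at -0.70 ± 0.13. The correction moved E2F1 to 0.23, NUF2 to -0.27 and CKS2 to -0.47. Of 32 glycolysis and hypoxia genes 3 were higher and 2 lower (median -0.07; 4 and 14 after the correction), with LDHA lower by -0.42 ± 0.09 and ALDOC higher by 0.79 ± 0.14. Of 29 cholesterol genes 2 were higher and 1 lower (median 0.07), SQLE being lower by -0.47 ± 0.08. Of 36 proteasome subunits PSMD2 alone was called, at 0.32 ± 0.08, and its call was lost after the correction (adjusted p = 0.138). Of 28 Hippo genes 1 was called each way (LATS2 at 0.49 and STK3 at -0.52, or 0.35 and -0.25 corrected). Of 35 Wnt genes 2 were higher and 1 lower, and of 36 interferon-stimulated genes 2 were called each way. Among the last was IFI16, a DNA sensor, with 1.80, 1.80 and 1.64 CPM in the TTC33 and 0.11, 0.10 and 0.15 CPM in the CCDC97 knock-down (3.89 ± 0.28; controls 0.06 to 0.25 CPM). IFI16 and DONSON held without any 1 library, CHAF1A was lost without CCDC97 knock-down replicate 2 or 3, and the other genes named in this paragraph were lost in 4 or 5 such fits, each time without replicate 2 or 3 of either knock-down.

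**Figure D5:**
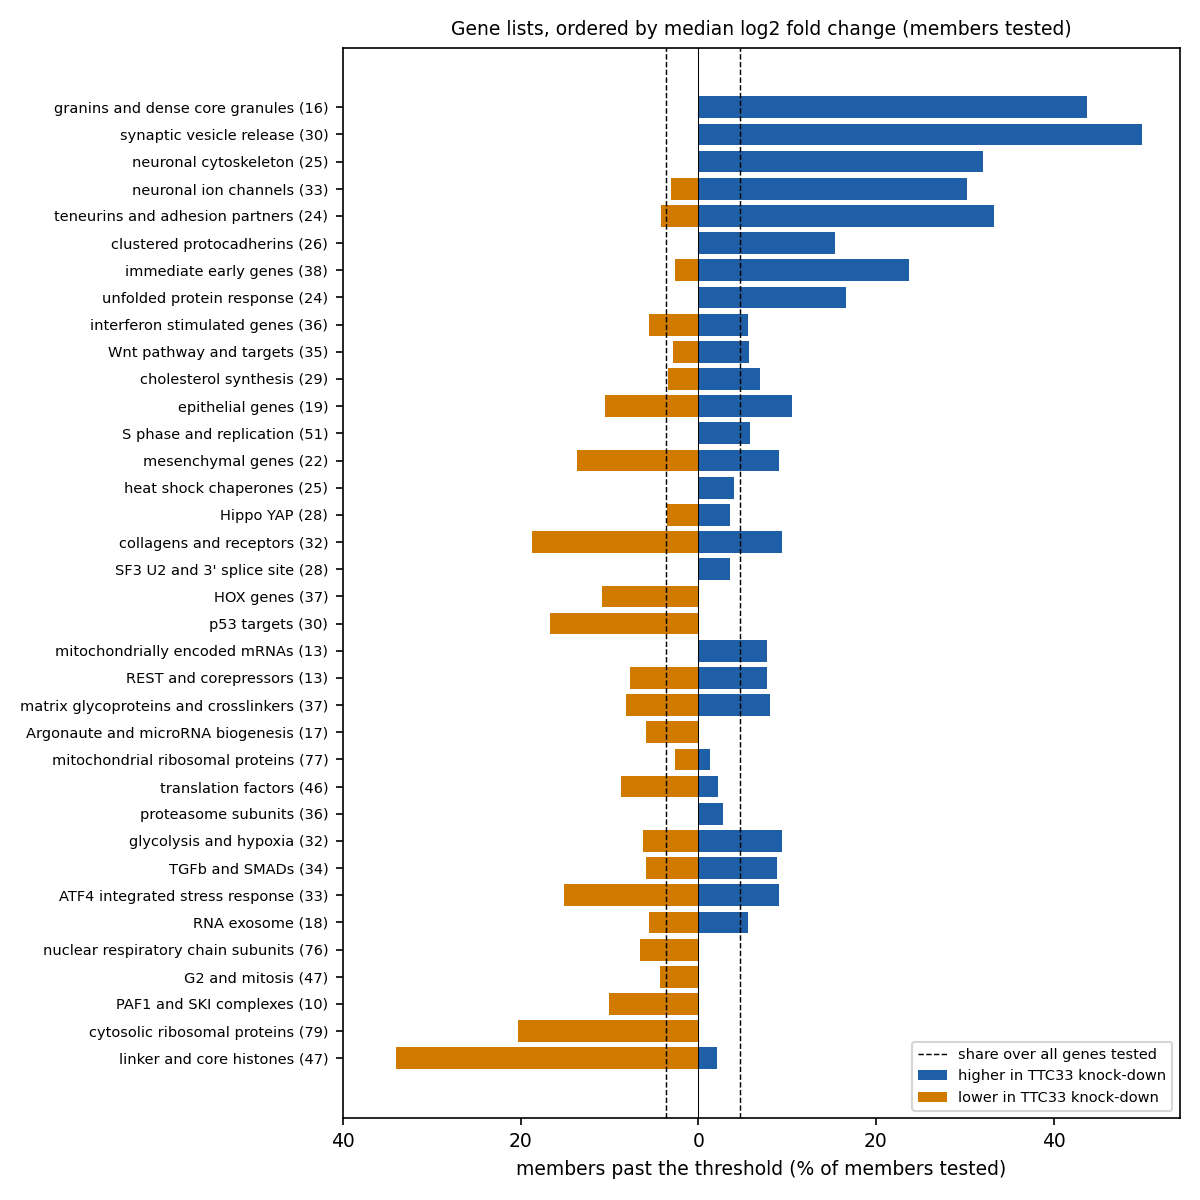
Share of the tested members of each list past an adjusted p of 0.05 (horizontal, percent of members tested), to the right where higher and to the left where lower in the TTC33 knock-down, with lists ordered by their median log2 fold change and the number tested in parentheses. Dashed lines mark the shares over all genes, 4.75% and 3.65%; synaptic vesicle genes reach 50% higher and histones 34.0% lower.

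Sequences of 7 bases in 3′ UTRs were read next, since a microRNA acts through such short matches. The sources used here give no microRNA sequence. The 3 heptamers were taken from an earlier search of 3′ UTRs on these same libraries, so the shares below are a description and not separate evidence. Over 13467 genes with an annotated 3′ UTR, AGCTATA was in 9.10% of the longest 3′ UTRs, in 25.2% of those lower and in 6.32% of those higher in the TTC33 knock-down. GATGAAA was in 17.4% of all, 33.2% of lower and 11.99% of higher genes. GAGCAGA ran the other way, in 16.1% of all, 9.86% of lower and 32.8% of higher genes. UTRs of lower genes were longer and poorer in GC (medians 1893 bases and 36.1%) than those of all genes (1405 bases and 42.6%). UTRs of higher genes were also longer but richer in GC (1633 bases and 50.8%). After the correction AGCTATA and GATGAAA were in 16.5% and 25.4% of lower genes and GAGCAGA in 28.6% of higher genes.

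Among 3′ UTRs of 1000 to 2000 bases the corrected median difference was -0.13 with AGCTATA and -0.01 without, -0.07 with GATGAAA and -0.01 without, and 0.06 with GAGCAGA and -0.03 without. The direction was the same in UTRs of 200 to 1000 and of 2000 to 4000 bases. Genes with 2 or more copies had corrected medians of -0.14, -0.11 and 0.04 for the 3 heptamers, genes with 1 copy -0.10, -0.07 and 0.02, and genes with 0 copies -0.02, -0.02 and -0.04. Median UTR length rose with copies, from 1278, 1159 and 1192.5 bases at 0 copies to 5175, 5062 and 4622.5 at 2 or more. The comparison by copies was not split by UTR length. Of the 10 genes with a 3′ UTR among the 12 lowest, 3 held AGCTATA, 4 GATGAAA and 3 GAGCAGA. Of the 11 among the 12 highest, 0 held AGCTATA, 1 GATGAAA and 6 GAGCAGA.

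Sites of 9 genes from both directions are printed as examples of the heptamers in their sequence context, chosen after their values were seen, each with 10 bases on either side and the heptamer in capitals, on the strand of the mRNA (GRCh38, transcripts of GENCODE release 29).
FAM3C, chr7:121350394-121350420, minus strand: ttaatgggagAGCTATAaatggcagag
IL6ST, chr5:55940705-55940731, minus strand: tagtgagcacAGCTATActgattttga
TMEM19, chr12:71701234-71701260, plus strand: tgagcaatgaAGCTATAttgtccctac
ELK3, chr12:96267204-96267230, plus strand: ctcattaactGATGAAAcaaatttgtc
TTC33, chr5:40714840-40714866, minus strand: ctttgttagaGATGAAAgtagcccact
CCDC97, chr19:41319584-41319610, plus strand: cttcagtgatGAGCAGAtgcggttccg
CYB5R3, chr22:42618834-42618860, minus strand: agtcatttatGAGCAGAaaaaaaaaaa
CPLX1, chr4:786409-786435, minus strand: cctgagggacGAGCAGAgcgcagcccc
NMNAT2, chr1:183250614-183250640, minus strand: aaagttgaggGAGCAGAggcccatggg
The printed site of CCDC97 lies in its coding sequence and the other printed sites in 3′ UTRs. CCDC97 holds a further GAGCAGA in its 3′ UTR, and CYB5R3 a further one in its coding sequence. The longest 3′ UTR of TTC33, on which the shares above rest, held 0 copies of GATGAAA, and the printed site lies in the 3′ UTR of a different transcript. The mRNA of that transcript of TTC33 held GATGAAA 2 times and AGCTATA 0 times, and that of CCDC97 held GAGCAGA 2 times. In CYB5R3 the CCDC97 knock-down was the low arm, whereas CPLX1 and NMNAT2 carry the same heptamer and were near control in the CCDC97 knock-down and high in the TTC33 knock-down. CPLX2, CHGA and SCG3, also among the largest differences, held 0 copies of GAGCAGA in the longest 3′ UTR.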

How the data were processed

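The members and gene lists were chosen with earlier results of these data known. The deposited files hold whole-number read counts by gene; the authors trimmed reads with Trimmomatic 0.39, aligned them with HISAT2 and counted with HTSeq 2.0.1 on GRCh38, per the submitters' processing notes. The sources used here do not give the HISAT2 version, annotation release, library strandedness or strand setting. Further named genes share exon bases with a gene on the other strand, among them SLC7A11 (865), DDIT4 (847), IL6ST (797), MDM2 (785), EIF4B (733) and HOXA11 (717). Where strand was not used, reads of those stretches could belong to either gene. A sample has a table marked R12, used throughout, and a smaller one marked U, with 6.55% to 11.9% of the sum. Rows naming no gene (33.4% to 57.9% of a knock-down library) were left out.

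The 6 libraries were fitted with edgeR 4.0.16 in R 4.3.3 (filterByExpr, TMM factors, quasi-likelihood test with 4 residual degrees of freedom, biological coefficient of variation 0.13). Two-sided p-values were adjusted by the Benjamini-Hochberg method over 17616 genes, with a threshold of 0.05. A standard error is the fold change over the root of its F statistic. CPM use TMM factors of all 9 libraries. The GC content and length correction subtracts smooth trends per library (mgcv 1.9.3; GENCODE release 29 values for 98.8% of genes tested). Differences against control or between libraries use log2 CPM (prior count 2). Tested on simulated counts, the fit recovered known changes. Where a GC trend was simulated as well, the uncorrected fit also called many unchanged genes, and the corrected fit few. Whether this holds for the calls reported was not tested.

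Replicates of a group differed by more than sampling noise, with chi-square per degree of freedom from 7.57 (TTC33 knock-down replicates 2 and 3) to 39.2. The depth of 21764203 to 31801574 counts limits the precision of genes below about 1 CPM.

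Genes named by rule are TTC33, CCDC97, PHF5A and WDR61, the 12 called genes with the largest log2 fold change each way among those with a symbol, a mean of at least 5 CPM and groups that do not overlap, and for each list up to 4 called members of smallest adjusted p (up to 2 where fewer than 3 were called). SYT4, SNAP25, PCSK1, CACNA1D, NEFL, STMN1, FOS and CDKN1A were chosen after their values were seen. Of 38 lists, 1360 symbols in all, 2 hold markers of HEK293 cells and of other cell types. Alternatives were DESeq2 1.42.0 size factors and Wald test, upper-quartile factors, no filter, a mean of at least 5 CPM, all 9 libraries, the replicate number as a block, the correction alone and with these last fits, R12 and U counts summed, and fits without each library or without both replicates 1.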

Additional observations from a re-analysis of the deposited data

How the results depend on the processing

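The count of 1479 genes was 1479 with DESeq2 size factors, 1469 with upper-quartile factors, 1441 with R12 and U counts summed and 1130 where a mean of at least 5 CPM was required. It was 3697 without a filter on low counts, 2632 with the DESeq2 Wald test, 3943 in the fit of all 9 libraries, 3974 after the GC content and length correction, 5128 with both of these, and 9749 with both replicates 1 left out. Leaving out 1 library gave 194 (without CCDC97 knock-down replicate 2) to 5916 (without TTC33 knock-down replicate 1). The fit with a replicate block called 97 genes, and 2820 with the block and the correction. Same-numbered libraries of both knock-downs deviated from their group means with correlations of -0.55, -0.13 and -0.16. Of the 3 TTC33 knock-down libraries, 0 correlated best with its own number. Levels followed GC content in opposite directions in the knock-downs, so these correlations cannot tell whether the numbers pair the libraries. The cause of the changes in the count was not tested. The share of higher among called genes was 56.5%, 42.5% after the correction and 74.2% with the block. PHF5A, at 0.00, changed sign with DESeq2 size factors (-0.0042), no filter (-0.0060), the DESeq2 Wald test (-0.0038), R12 and U counts summed (-0.000244), without CCDC97 knock-down replicate 1 (-0.036) and without both replicates 1 (-0.040); leaving out 1 library gave -0.036 to 0.025. WDR61 passed in the fit of all 9 libraries (-0.29) and without both replicates 1 (-0.38), but not in the fit of all 9 libraries with the correction (-0.12). Of the 128 called genes named by rule, 0 reversed in the 18 settings where they had a value (110 had one under the 5 CPM minimum and 124 with the DESeq2 Wald test), 3 lost their call after the correction and 93 with the block.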

Other observations

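Genes of chromosome 21 lay below the controls in all 6 knock-down libraries, with a larger difference in the CCDC97 knock-down. Over 154 genes of chromosome 21 at 1 CPM or more, the median log2 difference from the control mean was -0.42, -0.48 and -0.44 in the libraries of the CCDC97 knock-down and -0.22, -0.18 and -0.20 in the TTC33 knock-down. The 3 controls lay between -0.01 and 0.00. Replicate 1 of each group had the same sign and a like size as replicates 2 and 3. In the direct comparison the median was 0.25, and 0.18 after the GC content and length correction, with 20 genes higher and 1 lower before it and 49 and 3 after it. Of all genes tested, including those under 1 CPM, 4.75% were higher and 3.65% lower before the correction and 9.71% and 13.1% after it. DONSON lies on this chromosome. Chromosome 20 had a median of 0.18 over 367 genes (0.08 corrected) and chromosome 10 one of -0.14 over 577 genes (-0.10 corrected). The medians of chromosomes 19 and 22, 0.24 and 0.16, were 0.04 and -0.01 after the correction.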
